A study of Arabidopsis thaliana with 9 samples.

Results

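The late callus state of Arabidopsis thaliana was described by setting 3 arrays of seedlings kept for 8 d on callus-inducing hormones against 3 arrays of seedlings taken at 0 d, before the hormones. The 6 arrays were picked by their titles from 9, and the other 3, taken after 2 d on the hormones, place a change in time and enter the fit that gives the errors and p-values below. The 8 d and 2 d seedlings were moved, when 4 days old, to Murashige and Skoog medium with 2.26 µM 2,4-D, a synthetic auxin, and 0.46 µM kinetin, a cytokinin. The 0 d seedlings were 4 days old, had grown on the same medium without these hormones and were not moved, and all arrays carried RNA of whole seedlings. The labels name no ecotype, mutant or transgene, and hormone-free seedlings of the later age were not analysed here. The 8 d seedlings had been treated for longer and were also older than the 0 d seedlings, and these differences cannot be told apart. No label states that arrays of a group came from separate cultures, so that p-values reflect the spread among arrays alone, possibly a technical one. RNA of several organs was present at 0 d: the root hair expansin EXPA7 had signals of 606, 595 and 410.4, the young leaf factor YAB3 of 411, 345 and 340.1 and the stomatal peptide gene STOMAGEN of 560.2, 509 and 644.

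An auxin given together with a cytokinin makes plant tissue divide without forming organs, and the resulting mass of cells is called callus. A green seedling lives on photosynthesis, makes protective metabolites, moves sugar between organs and builds leaves, stomata and root hairs, whereas dividing tissue needs ribosomes, DNA, chromatin and new cell walls. Genes of photosynthesis itself, chlorophyll synthesis and the organelle genomes, 99 of the named genes, were set aside here. In RNA of whole seedlings, fewer cells of a type and less RNA per cell cannot be told apart.

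Signals are probe set brightness on a linear scale, and changes are differences in mean log2 signal, 8 d minus 0 d, so that a change of 1 stands for a 2-fold difference. A gene was called when the test across all probe sets (limma, Benjamini-Hochberg adjustment) gave an adjusted p under 0.05 and the change was at least 1 in size, and "rose" and "fell" are used only of called genes. Of 5482 named genes, 1448 rose (26.4%) and 915 fell (16.7%), with a median change of 0.46, and of all 10343 probe sets 25.4% rose and 18.1% fell. The signals of the 8 d and 0 d arrays did not overlap for 57.1% of named genes with the 8 d arrays higher and for 34.8% with them lower, so that an absence of overlap is the rule in this table. The table appears to hold probe sets picked for a change on these same arrays, which makes adjusted p-values too small, and the largest adjusted p among the 233 called genes that could be named here was 0.0124. Array medians ran from 538 to 546 at 8 d and from 445 to 452 at 0 d, and after median centring or quantile normalization the share of calls that were higher was 40.5% or 45.8%, against 58.3% without further scaling. The standard error of a change (SE) comes from the fit over all 9 arrays, 3 per group, so that scatter among the 2 d arrays also widens it, and a list is read against the shares and the median of all named genes. Lists were matched by locus and symbol, 4635 of the named genes have only a locus as symbol, and 615 genes outside photosynthesis are in a list. Counts of measured family members therefore cover the listed genes only, and a family can have others on the array.

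Photorespiration, the pathway that recovers carbon from the oxygenation reaction of Rubisco, was the most uniformly lowered of the lists with at least 6 measured genes, with 5 of 6 members lower and a median of -1.69. LrgB, the plastid envelope transporter that exports glycolate and imports glycerate, had signals of 414, 633 and 716 in the 8 d arrays, against 4400, 4401 and 4813 in the 0 d arrays. It fell by 2.99 (SE 0.19, limma, adjusted p = 4.47e-07), and its groups lay far apart. HPR, the peroxisomal hydroxypyruvate reductase, had 2181, 2918 and 4224 at 8 d, against 10470, 9803 and 8209 at 0 d, a fall of 1.66 (SE 0.23), with 8 d replicate 3 clearly above the other 8 d arrays but still under every 0 d array. Of the other loci of the list, AT1G32470 fell by 2.46, AT1G11860 by 1.73 and AT1G80380 by 1.41. AT2G35120, placed in the same list, went against them at 0.70 (SE 0.098) and was not called. At 2 d none of the 6 was called against 0 d, where 9.69% of named genes rose and 5% fell, and between 2 d and 8 d, where 7.81% rose and 13.7% fell, 5 of them fell and AT2G35120 rose.

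Genes that keep thiols and methionine reduced and remove peroxide also fell, 8 of 15 with none higher and a median of -1.12. MSRB6, a methionine sulfoxide reductase that repairs oxidised methionine, had signals of 91.6, 87.3 and 86.7 in the 8 d arrays, against 1608, 1404 and 1805 in the 0 d arrays, a fall of 4.17 (SE 0.17, adjusted p = 6.27e-08). The 3 arrays at 8 d were nearly equal, at the low end of the scale. MSRB9 of the same family had 233, 251 and 418 at 8 d, against 2969, 2724 and 2753 at 0 d and fell by 3.28 (SE 0.47), a change already present at 2 d (-3.70). The other named members act in the chloroplast: TAPX, the thylakoid ascorbate peroxidase, fell by 2.43 (SE 0.18), TRXF2, a thioredoxin that activates Calvin cycle enzymes in light, by 2.38 (SE 0.17), NTRC, a thioredoxin reductase, by 1.59 (SE 0.11) and AOR, which detoxifies reactive carbonyls, by 1.57 (SE 0.22). The 7 members that were not called lay between -0.83 and 0.28.

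Some other plastid genes went the same way. Of 9 genes listed under gene expression and protein turnover in plastids and mitochondria, 5 fell and 3 rose. CRR42, CRR21 and CRR41 fell by 2.72 (SE 0.20), 1.23 (SE 0.11) and 1.12 (SE 0.14). They are needed for the plastid NDH complex and so stand close to the photosynthesis genes set aside. CLPP4, a subunit of the plastid Clp protease, had 1659, 1813 and 1910 at 8 d, against 5103, 5315 and 5525 at 0 d, a fall of 1.57 (SE 0.094). The risers were PPR596 at 1.96 (SE 0.18) and PPR336 at 1.62 (SE 0.17), pentatricopeptide repeat proteins that bind organelle RNA, with AT5G55580 at 1.39 (SE 0.16). With 64 added to each signal 2 genes of this list rose and 2 fell, CRR21 at -0.85, CRR41 at -0.84 and AT5G55580 at 0.93 then being short of the fold threshold. Of 3 measured plastid chaperonin beta subunits, which help proteins fold, 2 fell, Cpn60beta4 by 1.95 (SE 0.12) and Cpn60beta2 by 1.65 (SE 0.15), while Cpn60beta3 rose by 1.58 (SE 0.15). Hop1, a cytosolic partner of Hsp70 and Hsp90, rose by 1.58 (SE 0.097) in the same list of 11 chaperones, of which 2 rose and 3 fell.

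Among enzymes that attach glutathione or sugars to small molecules, called members were more often lower than higher. Of 10 glutathione transferases 5 fell and 1 rose, with a median of -1.001, and of 23 UDP-glycosyltransferases 9 fell and 2 rose, with a median of -0.81. GSTU18, a tau-class glutathione transferase, had signals of 222, 232 and 364 in the 8 d arrays, against 1087, 1126 and 1024 in the 0 d arrays, and fell by 2.02 (SE 0.21, adjusted p = 9.65e-06). Its 8 d replicate 3 was the highest of the 8 d arrays and still far under the 0 d arrays. GSTU22 fell by 2.62 (SE 0.15), GSTU28 by 2.51 (SE 0.22), GSTU27 by 1.28 (SE 0.20) and GSTU20 by 1.03 (SE 0.15). GSTU25 went the other way, with 1569, 1622 and 2512 at 8 d, against 886, 919 and 644 at 0 d, a rise of 1.20 (SE 0.19). The calls of these last 2 were the weak ones: GSTU20 was at -0.76 after quantile normalization, -0.89 without 8 d replicate 1 and -0.97 without 0 d replicate 3, and GSTU25 at 0.93 after median centring and 0.98 without 8 d replicate 3, all short of the fold threshold.

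Among the glycosyltransferases, GT72B1 (UGT72B1), which conjugates phenols and chlorinated xenobiotics, had 430.4, 434 and 434 at 8 d, against 1435, 1309 and 1436 at 0 d. It fell by 1.69 (SE 0.14, adjusted p = 2.16e-06), with almost no spread among the 8 d arrays. UGT73B1 had 76.2, 71.4 and 134 at 8 d, against 445, 450.1 and 506 at 0 d, a fall of 2.37 (SE 0.24), and UGT76E11 fell by 2.42 (SE 0.17). UGT78D1, a flavonol rhamnosyltransferase, fell by 2.08 (SE 0.23), as did CHIL, the chalcone isomerase-like protein of flavonoid synthesis, by 1.65 (SE 0.24), while UGT78D2 of the same list of 3 flavonoid genes was at -0.71 and not called. UGT84A4 and UGT72E2, which glucosylate hydroxycinnamic acids and monolignols, fell by 1.60 (SE 0.14) and 1.25 (SE 0.18), beside HCT of lignin synthesis at -0.71, not called. UGT71C3 rose by 1.67 (SE 0.15), and UGT73B4 by 1.17 (SE 0.23), although UGT73B4 was at 0.89 after median centring, 0.92 after quantile normalization and 0.99 without 8 d replicate 3. Of 5 listed cytochromes P450, oxidases of secondary metabolism, 3 fell. CYP71B5 fell by 1.72 (SE 0.29), CYP71B28 by 1.13 (SE 0.18) and CYP84A4 by 1.03 (SE 0.11). With 64 added to each signal this count was 1. CYP71B28 was also short of the fold threshold without 8 d replicate 3, at -0.98.

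Glucosinolates are sulfur-rich defence compounds of the mustard family, and myrosinases split them. Of 6 measured genes for their synthesis and transport 2 fell, AOP1, a dioxygenase of the family that modifies glucosinolate side chains, by 1.63 (SE 0.17), and GSTU20, named above, so that the count was 1 without 0 d replicate 3 or 8 d replicate 1. The transporters GTR1 and GTR2 were at -0.67 (SE 0.11) and -0.42 (SE 0.11), and BCAT4, which starts the methionine-derived branch, at 0.54 (SE 0.13), none of them called. Among 9 genes of myrosinases and glucosinolate breakdown BGLU28 had 159, 156 and 230.2 at 8 d, against 809, 1113 and 819 at 0 d, a fall of 2.34 (SE 0.41). AT1G54020 and AT2G25980 rose by 2.26 (SE 0.35) and 1.31 (SE 0.19), and the other 6 were not called.

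**Figure D1:**
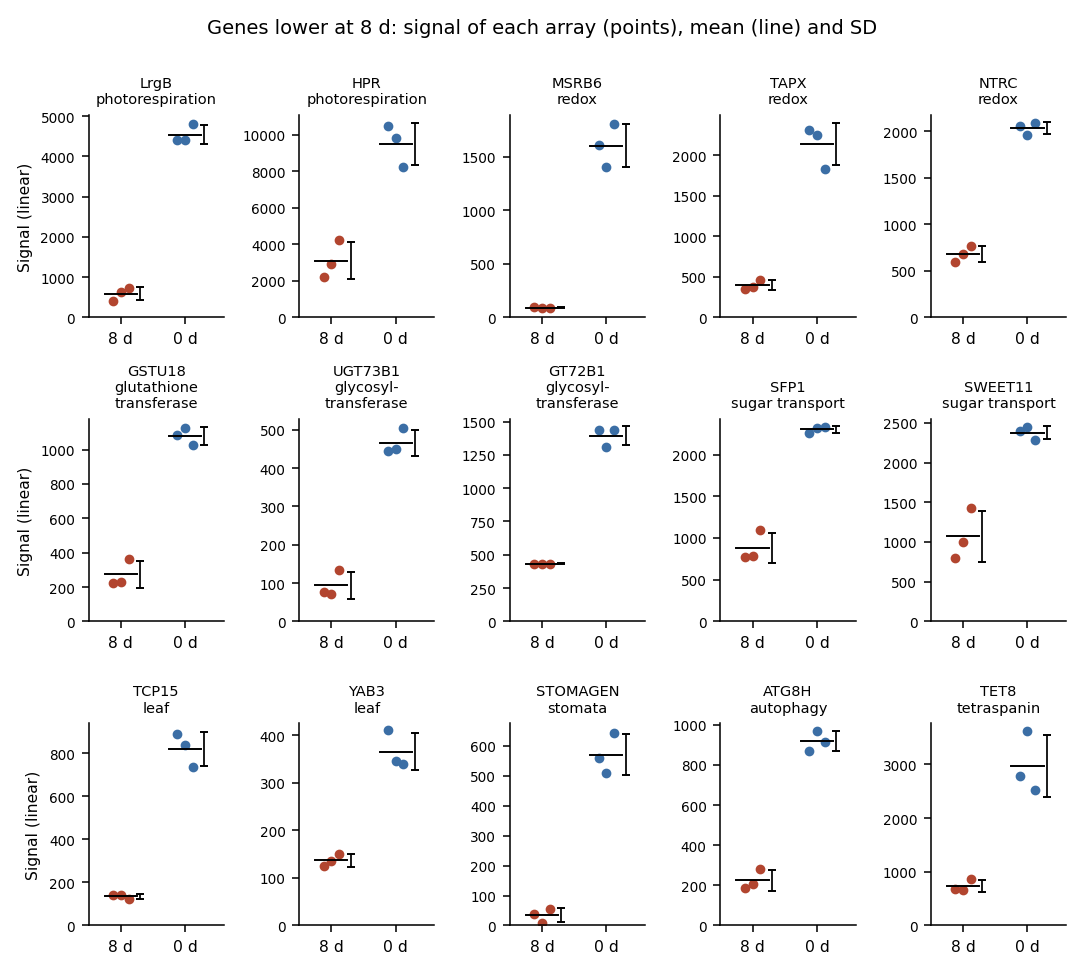
Linear signal of each array for 15 genes that were lower at 8 d, with the 8 d arrays on the left and the 0 d arrays on the right of each panel, the mean as a line and the standard deviation as a bar. In no panel do the 8 d and 0 d arrays overlap, and MSRB6 and GT72B1 show the least spread at 8 d.

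Several sugar carriers fell. Of 11 transporters of sugars, amino acids and organic cations 6 fell and 1 rose, with a median of -1.09. SFP1, of the sugar porter family, had 766, 787 and 1091 at 8 d, against 2260, 2315 and 2337 at 0 d, a fall of 1.41 (SE 0.22). Its neighbour in the genome SFP2 had 89.4, 75.8 and 70.3 at 8 d, against 489, 375 and 370.2 at 0 d, a fall of 2.38 (SE 0.22). Neither gene's groups came close to each other. SWEET11, which releases sucrose from leaf cells for loading into the phloem, had 794, 1002 and 1426 at 8 d, against 2403, 2447 and 2282 at 0 d, a fall of 1.19 (SE 0.19, adjusted p = 1.82e-04). Replicate 3 was the highest of its 8 d arrays, as for HPR, and without 8 d replicate 1 the change was -0.99, just short of the fold threshold. SWEET2, a vacuolar sugar carrier, fell by 1.39 (SE 0.26), TMT1, which pumps hexoses into the vacuole, by 1.09 (SE 0.13, just short of the fold threshold without 8 d replicate 1) and OCT5, an organic cation carrier, by 1.47 (SE 0.15). SAG29 (SWEET15), a sucrose exporter known from senescing leaves, was the exception, with 627, 840.4 and 615 at 8 d, against 134, 133 and 156 at 0 d, a rise of 2.29 (SE 0.15). In the list of nitrate and peptide carriers AT1G59740 (NPF4.3) had 5376, 4870 and 3620 at 8 d, against 175, 219 and 186 at 0 d, a rise of 4.57 (SE 0.16), among the largest measured. AT1G68570 (NPF3.1) fell by 3.09 (SE 0.20) to 100 ± 24 (SD, n = 3), and the other 4 members were not called, at -0.94 to -0.42.

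Regulators of leaf development went both ways, with 3 of 6 lower, 1 higher and a median of -0.31, and 2 of 3 genes of the stomatal list fell. TCP15, a transcription factor of leaf cell proliferation, had 139, 142 and 123 in the 8 d arrays, against 889.7, 839 and 734 in the 0 d arrays. It fell by 2.60 (SE 0.13, adjusted p = 1.38e-07), with -1.74 reached by 2 d. YAB3, which specifies the lower side of the leaf, had 125, 136 and 151 at 8 d, against 411, 345 and 340.1 at 0 d, a fall of 1.41 (SE 0.13). YAB5 of the same family had 78.8, 86.1 and 117 at 8 d, against 208, 209 and 192 at 0 d, a fall of 1.13 (SE 0.16). Neither was called at 2 d, at 0.27 and 0.40, and with 64 added to each signal YAB5 was at -0.76, not called. PHV, a homeodomain factor of the opposite, upper leaf side and of meristems and vascular tissue, had 1669, 1415 and 1626 at 8 d, against 324, 279 and 336 at 0 d, a rise of 2.33 (SE 0.12). Its lowest 8 d array stood far above its highest 0 d array. LEP and ARL of the same list of 6 were at 0.84 and 0.52, not called. STOMAGEN, a peptide made in leaf mesophyll that promotes stomata, had 37, 9.4 and 56.8 at 8 d, against 560.2, 509 and 644 at 0 d, low and scattered signals that make its fall of 4.40 (SE 0.53) imprecise. Of the other 2 genes of the stomatal list FMA had weak signals and fell by 1.01 (SE 0.24), no longer called once 8 d replicate 1 was left out, and AT1G22690 was at -0.73, not called.

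Genes of water stress went both ways, 2 of 9 in the abscisic acid and dehydration list higher and 3 lower. Of 4 genes in the list of seed storage and late embryogenesis 2 fell and none rose, and both, LTI30 and LEA4-5, were in the dehydration list too. LTI30, a dehydrin, had 256, 573 and 549.9 at 8 d, against 2618, 2573 and 2617 at 0 d, a fall of 2.59 (SE 0.27) that was largely complete at 2 d (-2.12), and LEA4-5, a late embryogenesis protein, fell by 1.99 (SE 0.29). OLEO3, of oil bodies, was at 0.089 (SE 0.10) with low, overlapping signals. HVA22C, an abscisic acid responsive membrane protein, had 1273, 1300 and 1315 at 8 d, against 463, 461 and 429 at 0 d and rose by 1.52 (SE 0.097), and COR27, a cold-regulated gene, rose by 1.50 (SE 0.19). Neither was called at 2 d, at 0.49 and 0.033. EEL, a bZIP factor of late seed maturation, had 1207, 1066 and 1377 at 8 d, against 82, 89.4 and 57.5 at 0 d, a rise of 4.01 (SE 0.17, adjusted p = 6.33e-08). It was the largest rise among the 17 homeodomain, bZIP, MADS and zinc finger factors, of which 3 rose and 5 fell.

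Genes of signalling peptides, receptors and calcium sensors fell in part. Of 7 RALF and CLE peptide genes 4 fell and 1 rose, and of 9 genes in the receptor and calcium sensor list 5 fell and none rose. Receptor genes named only by a locus can lie outside this list. RALFL32, RALFL22 and RALFL33, of the RALF family of wall-signalling peptides, fell by 2.01 (SE 0.22), 1.53 (SE 0.13) and 1.14 (SE 0.13). CLE41 and CLE44 encode the same peptide, which keeps vascular stem cells undifferentiated, and moved apart. CLE41 had 384, 331 and 402 at 8 d, against 1013, 709 and 1050 at 0 d, a fall of 1.29 (SE 0.15), and CLE44 had 855, 1077 and 567 at 8 d, against 155, 168 and 146 at 0 d, a rise of 2.37 (SE 0.20). THE1, a receptor kinase that senses the state of the cell wall, fell by 1.10 (SE 0.13), and CML42 and CML30, calmodulin-like calcium sensors, by 1.74 (SE 0.094) and 1.09 (SE 0.12). With 64 added to each signal 2 of the 9 receptor and sensor genes fell, CML30 being at -0.80. CML42 and CML30 were also among the 3 of 8 genes that fell in the defence list, none of which rose.

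Autophagy moves cell contents to the vacuole for breakdown, and its ATG8 proteins coat the forming vesicle. Of 10 measured genes 2 fell, 1 rose and 7 were not called. The share of fallers was close to the 16.7% of all named genes, and that of risers under their 26.4%. ATG8H had 187, 206 and 284 at 8 d, against 868, 968 and 916 at 0 d, a fall of 2.05 (SE 0.19). ATG8E had 386, 553 and 509 at 8 d, against 1728, 2082 and 1394 at 0 d, a fall of 1.84 (SE 0.22). Another member of the same family moved the opposite way: ATG8G had 505, 507 and 617 at 8 d, against 216, 220.5 and 192 at 0 d, a rise of 1.37 (SE 0.15). Among 5 tetraspanins, membrane proteins of secreted vesicles, TET8 had 673, 656 and 869 at 8 d, against 2788, 3616 and 2517 at 0 d, a fall of 2.02 (SE 0.16), and the others lay between -0.73 and 0.19, not called. Of 29 membrane trafficking genes 24 were not called. VPS2.2, of the ESCRT machinery that forms multivesicular bodies, was the only one called higher, at 2.31 (SE 0.22), and PRA7 fell by 1.23 (SE 0.11).

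Among the gains, making ribosomes stood first, with the highest median of the lists with at least 6 measured genes. Of 38 genes for the assembly of ribosomes in the nucleolus 37 rose, none fell, and the median was 1.99. NRPA1, the largest subunit of RNA polymerase I, which transcribes ribosomal RNA, had 766, 861 and 739 in the 8 d arrays, against 133, 120.4 and 113 in the 0 d arrays, a rise of 2.69 (SE 0.14, adjusted p = 1.52e-07). NRPA2, the next largest subunit, had 1375, 1605 and 1284 at 8 d, against 373, 350.5 and 312 at 0 d, a rise of 2.04 (SE 0.20). For both, every 8 d array was far above every 0 d array. RBL, a nucleolar protein, had 869.8, 998 and 828 at 8 d, against 122, 210.3 and 135 at 0 d, a rise of 2.57 (SE 0.24), and RRP41L, related to an exosome subunit, rose by 2.82 (SE 0.21). The largest rise of the list was that of AT1G06720, at 2.92 (SE 0.23). RRP41, which processes ribosomal RNA and is named only because it alone was not called, was at 0.82 (SE 0.17). By 2 d 29 of the 38 had already risen, and between 2 d and 8 d RRP41L alone was called, at 1.49, with a list median of 0.74.

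The ribosomal proteins themselves shifted less. Of 69 genes of cytosolic ribosomal proteins 15 rose and none fell, 21.7% against 26.4% of all named genes, and the median was 0.68. AT3G13580 had 5761, 5167 and 5249 at 8 d, against 1223, 1154 and 1181 at 0 d, a rise of 2.18 (SE 0.10), and AT5G59240 rose most, by 2.59 (SE 0.30). The 54 others ran from -0.014 to 0.96. Quantile normalization changed this count, and after it 36 of the 69 rose with a median of 1.01. Near-identical copies of many of these genes can share a probe set, and how far they do so here was not tested.

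Transcription and RNA handling rose too, with 16 of 27 genes of RNA polymerases, splicing and RNA export higher, none lower and a median of 1.04. NRPA1 and NRPA2, given above, were among these risers, and NRPA1 was counted in the ribosome assembly list as well. NRPC1 and NRPC2, the largest subunits of RNA polymerase III, which makes transfer RNA, rose by 1.62 (SE 0.15) and 1.45 (SE 0.15), NUP155 of the nuclear pore by 1.57 (SE 0.17) and the splicing factor PRP39 by 1.30 (SE 0.10). The count depended on the scaling, and 6 were called after median centring, 9 after quantile normalization and 8 with 64 added to each signal.

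**Figure D2:**
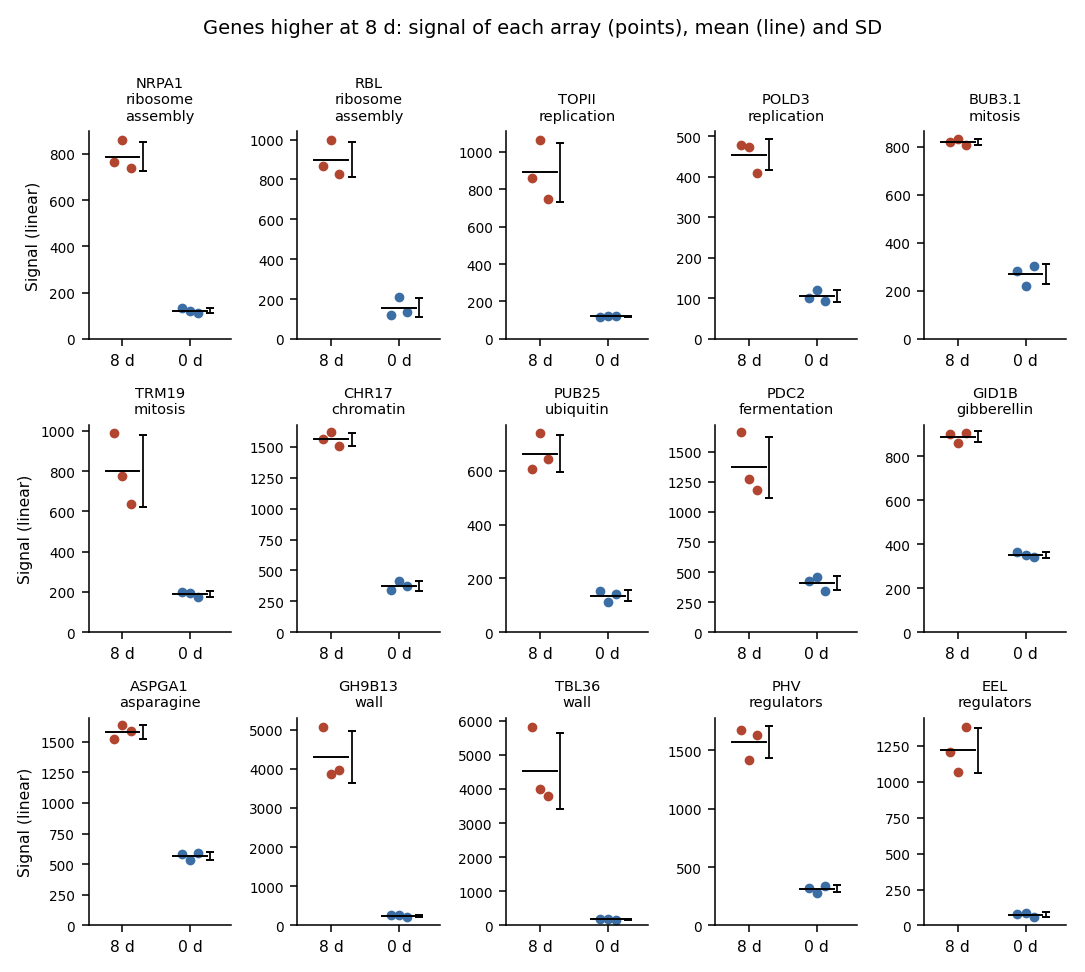
Linear signal of each array for 15 genes that were higher at 8 d, with the 8 d arrays on the left and the 0 d arrays on the right of each panel, the mean as a line and the standard deviation as a bar. In no panel do the groups overlap, and PDC2, TRM19, TBL36 and GH9B13 each have 8 d replicate 1 above the other 8 d arrays.

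DNA replication genes rose, 11 of 14 with none lower and a median of 1.52. TOPII, topoisomerase II, which untangles replicated chromosomes, had 859, 1063 and 750.5 in the 8 d arrays, against 116, 120.3 and 124 in the 0 d arrays. It rose by 2.87 (SE 0.14, adjusted p = 1.13e-07), the most of its list, and 2.36 of this was present at 2 d. POLD3, a subunit of DNA polymerase delta, had 478, 473 and 409 at 8 d, against 100.2, 121 and 92.8 at 0 d, a rise of 2.12 (SE 0.13). HTB2, a histone H2B, had 1330, 1422 and 1247 at 8 d, against 302, 388 and 315 at 0 d, a rise of 2.00 (SE 0.17). HTR12, the centromeric histone H3, rose by 2.08 (SE 0.12) and was counted in the cell cycle list below as well. Quantile normalization left 7 of the 14 called, and no member was called between 2 d and 8 d.

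Of 18 cell cycle, mitosis and cytokinesis genes 13 rose and 1 fell, with a median of 1.15. BUB3.1, of the spindle checkpoint, had 819.6, 835 and 809 at 8 d, against 282, 222 and 303 at 0 d, a rise of 1.62 (SE 0.14). TRM19, of a family that binds TONNEAU1 at microtubules, rose by 2.05 (SE 0.16), and Haspin, a kinase of mitotic histone H3, by 1.91 (SE 0.18). SIM, an inhibitor of cyclin-dependent kinases known from trichomes that replicate DNA without dividing, had 367, 357 and 273 at 8 d, against 789.8, 768 and 899 at 0 d and was the member that fell, by 1.31 (SE 0.14). After median centring or quantile normalization 5 members rose and 2 fell, and with 64 added to each signal 7 rose and 1 fell. Of 11 chromatin genes 5 rose and none fell, and CHR17, a chromatin remodelling ATPase of the ISWI type, had 1560, 1617 and 1509 at 8 d, against 339.6, 414 and 370.2 at 0 d, a rise of 2.06 (SE 0.11). CHR24 and CHR23 rose by 1.88 (SE 0.16) and 1.74 (SE 0.22), while ATRX and ETL1, at 1.08 and 1.04, lost their calls after median centring (0.80 and 0.77).

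Some genes of nucleotide and nitrogen supply were also higher. Of 7 nucleotide synthesis genes 4 rose and none fell, from AT2G35040 at 1.18 (SE 0.16; 0.91 after median centring, not called) to AT1G30820 at 2.58 (SE 0.16). ASPGA1 and ASPGB1, the asparaginases, which free ammonium from asparagine, were the members called among 10 genes of amino acid breakdown. That is a smaller share of risers than the 26.4% of all named genes. ASPGA1 had 1521, 1636 and 1585 at 8 d, against 586, 533 and 588 at 0 d, a rise of 1.48 (SE 0.1), and ASPGB1 rose by 1.32 (SE 0.12), though it was at 0.88 after quantile normalization. APL4, a large subunit of the enzyme that starts starch synthesis, had 188, 255 and 369.6 at 8 d, against 49.1, 46.7 and 52.6 at 0 d, a rise of 2.40 (SE 0.20), beside a fall of 2.29 (SE 0.16) for AT1G62660 in the same list of 6. Of 23 genes of ubiquitin and related modifiers 7 rose and 1 fell, a share of risers close to the 26.4% of all named genes. The U-box ubiquitin ligase PUB25 rose most, with 609, 741 and 643 at 8 d, against 152, 112 and 140.5 at 0 d, a rise of 2.31 (SE 0.13). SAE1A, of the enzyme that activates the ubiquitin-like modifier SUMO, rose by 1.28 (SE 0.12), and PUB23, a U-box ligase of the stress response, by 1.54 (SE 0.33). The ubiquitin-conjugating enzyme UBC20 rose by 1.61 (SE 0.14), and UBC29 fell by 1.004 (SE 0.12). UBC29 was short of the fold threshold when replicate 1 or 3 of the 0 d arrays or replicate 2 of the 8 d arrays was left out (-0.90 in the last case).

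Fermentation and low-oxygen genes were higher at 8 d, and several had been lower at 2 d. Plant tissue short of oxygen switches to fermentation, in which pyruvate decarboxylase makes acetaldehyde, and raises a set of core hypoxia genes. Of the 9 measured, 7 rose and none fell at 8 d against 0 d, with a median of 1.66. PDC2, a pyruvate decarboxylase, had 1660, 1270 and 1184 in the 8 d arrays, against 429, 456 and 342 in the 0 d arrays, a rise of 1.74 (SE 0.24, adjusted p = 6.64e-05). AT3G10040 (HRA1, an attenuator of the hypoxia response) had 504, 302 and 222 at 8 d, against 106, 70.7 and 98.9 at 0 d, a rise of 1.84 (SE 0.29). AT4G33560 had 2096, 1211 and 793 at 8 d, against 155, 165 and 134 at 0 d and rose most, by 3.07 (SE 0.35). For each of these 3 genes 8 d replicate 1 was the highest and 8 d replicate 3 the lowest of the 8 d arrays, and no 8 d array reached down to the 0 d level. AT4G17260 and AT3G03270, named after their values were seen as the members not called, were at 0.063 and -0.38 with overlapping arrays. At 2 d 5 of the 9 were lower than at 0 d and none higher, with a median of -1.30, and all 9 rose between 2 d and 8 d, with a median of 2.04. AT1G19530 shows the course, with 795, 883 and 918 at 0 d, 114, 84.7 and 146 at 2 d and 3551, 2210 and 2586 at 8 d. NDB4, an alternative NAD(P)H dehydrogenase of mitochondria, also rose, by 2.78 (SE 0.49), with 1489, 1481 and 497 at 8 d, against 139.5, 150.5 and 162 at 0 d, so that 8 d replicate 3 stood well under the other 8 d arrays. CYTC-2, a cytochrome c, fell by 1.37 (SE 0.17), and the 4 other respiration genes were not called.

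**Figure D3:**
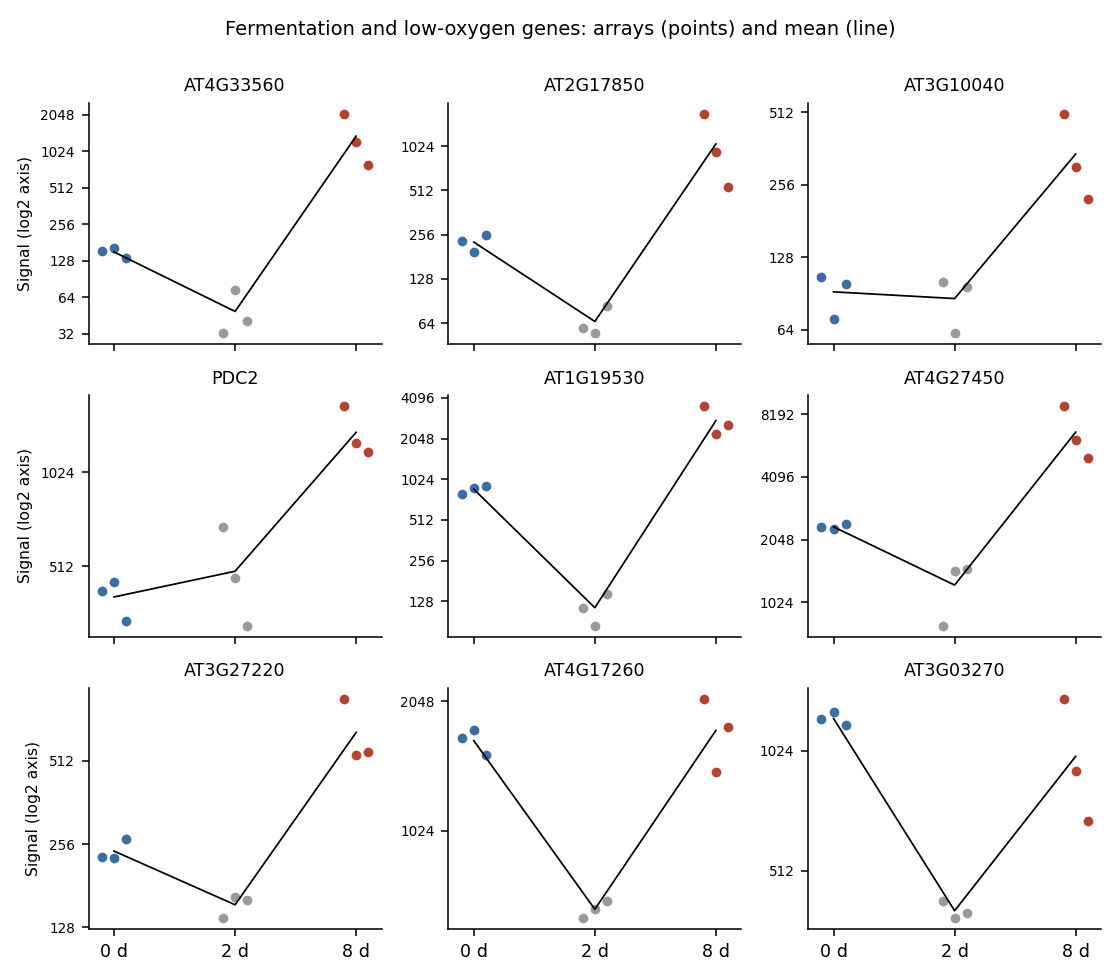
Signal on a log2 axis for the 9 measured genes of the fermentation and low-oxygen list at 0 d, 2 d and 8 d, with 1 point per array and a line through the means of 3 arrays. For 7 genes all 8 d arrays lie above all 0 d arrays, and all 9 rose between 2 d and 8 d; AT4G17260 and AT3G03270 were not called against 0 d.

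Of 9 genes of auxin response and transport 6 rose and 3 fell, with a median of 1.63. With 64 added to each signal 6 rose and 1 fell. IAA30 rose most, by 4.78 (SE 0.22), and GH3.3 rose by 2.66 (SE 0.14), whereas IAA18 fell by 1.15 (SE 0.11). The other hormone pathways changed in a few members each. Gibberellin promotes growth by letting GID1 receptors and SLEEPY F-box proteins remove DELLA repressors. Of 6 measured genes 3 rose and 1, AT2G14900, fell by 1.52 (SE 0.17). GID1B had 904, 859 and 906 at 8 d, against 365, 350.1 and 340.1 at 0 d, a rise of 1.34 (SE 0.091), while its relative GID1A was at 0.43 and not called. SLY2 rose by 1.83 (SE 0.19) and SLY1 was at -0.22, not called. SPY, a repressor of the pathway, rose by 1.12 (SE 0.10), or was at 0.85 after median centring and 0.95 after quantile normalization, both short of the fold threshold. WAG2, a kinase that directs auxin efflux carriers, had 738, 555 and 584 at 8 d, against 256, 269.9 and 264 at 0 d, a rise of 1.24 (SE 0.14) that appeared after 2 d (0.025 at 2 d) and was short of the fold threshold after median centring (0.97) and quantile normalization (0.93). Of 3 genes in the cytokinin list, RR16, a response regulator induced by cytokinin, had 40.4, 38.1 and 20.1 at 8 d, against 243, 267 and 309.8 at 0 d and fell by 3.12 (SE 0.26), and the other two, UGT76C1 and UGT76C2, which inactivate cytokinins by glucosylation, were at -0.099 and 0.58, not called. The 3 measured clock genes, GI, TIC and XCT, were at 0.43, 0.71 and 0.84, also not called.

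In the cell wall families described next, members of the same family went opposite ways. Xyloglucan endotransglucosylases cut and rejoin the xyloglucan chains that tie cellulose together, and 4 of 7 fell and 1 rose. XTH16 had 153, 137 and 152 in the 8 d arrays, against 1465, 1454 and 1925 in the 0 d arrays, a fall of 3.44 (SE 0.14, adjusted p = 5.99e-08), and its groups were far apart. XTH18 had 326, 322 and 190.1 at 8 d, against 1990, 2258 and 2411 at 0 d, a fall of 3.03 (SE 0.21). XTH20 went against them with 1228, 1188 and 408 at 8 d, against 72.1, 93.9 and 126 at 0 d, a rise of 3.15 (SE 0.45), in which 8 d replicate 3 lay well under the other 8 d arrays. Expansins loosen the wall, and of 10 measured 4 rose and 5 fell. EXPA4 rose most, by 2.30 (SE 0.15). EXPA7, the root hair gene named at the start, fell by 2.535 (SE 0.31), with -2.44 reached by 2 d, and EXPA8 fell by 2.16 (SE 0.27). EXPA20 had 958, 999 and 869.7 at 8 d, against 235, 218 and 182 at 0 d, a rise of 2.16 (SE 0.12). EXPA16 had 87, 42.6 and 32.8 at 8 d, against 365, 446 and 346 at 0 d, a fall of 2.95 (SE 0.30). The expansin-like genes EXLA1 and EXLA2 fell by 1.05 (SE 0.15) and 1.11 (SE 0.24), calls that ended with 64 added to each signal (-0.96 and -0.90) and without 8 d replicate 3 (-0.96) for EXLA1 or 8 d replicate 1 (-0.92) for EXLA2.

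Of 15 genes listed as glycoside hydrolases and glucanases of the wall 4 rose and 4 fell, a share of risers close to that of all named genes. GH9 glucanases, which cut cellulose-like chains, were among both. GH9B13 had 5059, 3854 and 3980 at 8 d, against 278, 257 and 225 at 0 d, a rise of 4.08 (SE 0.18), and GH9C2, GH9B8 and GH9A3 rose by 1.34 (SE 0.19), 1.42 (SE 0.15) and 1.47 (SE 0.19), GH9A3 being at 0.99 with 64 added to each signal and GH9B8, after quantile normalization, just missing the minimum change. GH9C1, a root hair glucanase, fell by 2.63 (SE 0.28), BGLU46 by 2.21 (SE 0.22) and BGLU40 by 1.63 (SE 0.19), beside BGLU28 given above. The BGLU genes are beta-glucosidases by name, and whether they act on the wall was not tested. Of 20 genes listed under the making and acetylation of cellulose and hemicellulose 4 rose and 6 fell. The glucanase GH9A3, given above, was in this list too and among its risers. TBL36, of the TRICHOME BIREFRINGENCE-LIKE family of wall acetyltransferases, had 5801, 3998 and 3789 at 8 d, against 184, 178 and 171 at 0 d, a rise of 4.64 (SE 0.15), while its relative TBL25 had 518, 567 and 832 at 8 d, against 2447, 2424 and 2646 at 0 d, a fall of 2.00 (SE 0.18). CSLC04 and CSLA03, which build xyloglucan and mannan backbones, fell by 1.19 (SE 0.17) and 1.97 (SE 0.21). After median centring 2 of these 20 rose and 9 fell. Prx37, a class III peroxidase of the wall, had 1711, 1868 and 1083 at 8 d, against 219, 226 and 205 at 0 d, a rise of 2.81 (SE 0.19). In its list of 3 peroxidase and laccase genes, which does not cover the whole family, the other 2 were not called, at 0.90 and 0.50.

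**Figure D4:**
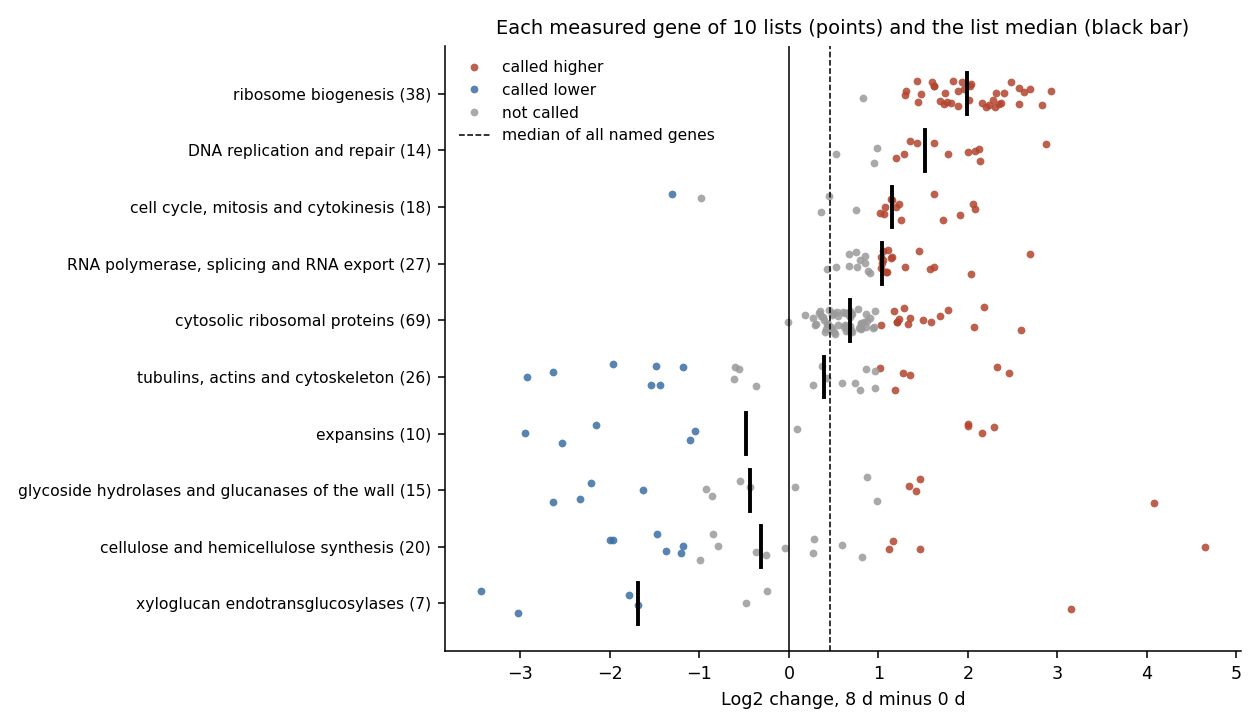
Log2 change (8 d minus 0 d) of each measured gene in 10 lists of growth machinery and cell wall, coloured by call, with the list median as a black bar and the median of all named genes, 0.46, as a dashed line. The ribosome biogenesis genes lie together on the right, with a median of 1.99, whereas the cytoskeleton and wall lists hold called genes on both sides of 0.

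The cytoskeleton list likewise held changes both ways, 6 of 26 genes higher and 7 lower. The share of risers was close to the 26.4% of all named genes, and that of fallers above their 16.7%. TUB1, a beta-tubulin of microtubules, had 154, 199.5 and 174 at 8 d, against 1327, 1416 and 1256 at 0 d, a fall of 2.93 (SE 0.15). TUB5, also a beta-tubulin, had 788, 907 and 842 at 8 d, against 2440, 2157 and 2516 at 0 d, a fall of 1.49 (SE 0.11). A further beta-tubulin gene, TUB7, moved the opposite way, with 2361, 2776 and 2381 at 8 d, against 967, 1007 and 958 at 0 d, a rise of 1.35 (SE 0.12). ACT11, an actin, fell by 1.54 (SE 0.14). NET1A and NET4B, which anchor actin at membranes, rose by 2.46 (SE 0.13) and 1.28 (SE 0.14). Among the IQ-domain proteins, which link calmodulin to microtubules, IQD26 and IQD31 rose by 2.32 (SE 0.26) and 1.19 (SE 0.11, or 0.91 after median centring, not called), and iqd21 and IQD19 fell by 2.63 (SE 0.18) and 1.45 (SE 0.22), IQD19 with weak signals of 50.9, 104 and 81.8 at 8 d, against 193, 217 and 209 at 0 d and not called with 64 added to each signal (-0.94).

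Genes in the list of proteases and senescence also changed in both directions, 7 of 21 higher and 5 lower. The risers include the sucrose exporter SAG29, given above and counted here as well. ALPHA-VPE, a vacuolar protease, rose by 2.38 (SE 0.26), less than at 2 d (4.39). The list is made up largely of serine carboxypeptidase-like genes, whose products cut proteins or transfer acyl groups. The member scpl20 had 2502, 2208 and 1504 at 8 d, against 253, 258 and 245 at 0 d, a rise of 3.01 (SE 0.16), and SCPL45 and scpl35 rose by 1.87 (SE 0.15) and 1.71 (SE 0.20). SBT4.12, a subtilase, had 139.7, 173 and 271 at 8 d, against 1017, 1074 and 953 at 0 d, a fall of 2.44 (SE 0.21) that was larger at 2 d (-3.98), and scpl26, scpl25 and SCPL34 fell by 1.37 (SE 0.11), 1.22 (SE 0.14) and 1.15 (SE 0.15). YLS5, named for yellowing leaves, rose by 1.56 (SE 0.19).

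HAT2, an auxin-induced homeodomain factor, had 2675, 2512 and 2011 at 8 d, against 666, 678 and 588 at 0 d, a rise of 1.89 (SE 0.13) already present at 2 d (1.85). SPT, a bHLH factor of carpel and leaf growth, had 779, 696 and 942 at 8 d, against 335, 277 and 336 at 0 d, a rise of 1.34 (SE 0.15), and its close relative ALC fell by 1.20 (SE 0.15), or was at -0.90 with 64 added to each signal, not called. NAC014 rose by 1.58 (SE 0.15), and tny (TINY), an ERF factor of growth under stress, fell by 2.09 (SE 0.18). BZIP60, which carries the unfolded protein signal of the endoplasmic reticulum, had 693, 856 and 757 at 8 d, against 1911, 2191 and 1830 at 0 d, a fall of 1.36 (SE 0.17), and BZIP61 fell by 2.19 (SE 0.20). BZIP60 was already at -1.33 at 2 d and BZIP61 at 0.014.

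Over all named genes outside photosynthesis, in or out of the lists, the 12 largest rises and 12 largest falls were taken among genes whose lower group had a mean signal of at least 100, and most were loci without a symbol. Of the 12 largest rises, AT4G38410 had 5328, 4759 and 5485 at 8 d, against 153, 144 and 202 at 0 d, at 4.98 (SE 0.13), followed by TBL36 and AT1G59740 given above and AT3G27400, with 4801, 3986 and 1242 at 8 d, against 115, 116 and 144 at 0 d, at 4.53 (SE 0.64). AT5G60630 closed this set at 3.73. Of the 12 largest falls, AT1G52100 had 416, 412 and 252 at 8 d, against 6878, 6509 and 6066 at 0 d, at -4.21 (SE 0.27), and AT3G22620 had 211, 290.5 and 205 at 8 d, against 3832, 4158 and 3721 at 0 d, at -4.07 (SE 0.16). AT3G22620 had reached -3.66 by 2 d, whereas AT5G48490, with 147, 187 and 495 at 8 d, against 3237, 3032 and 3077 at 0 d, was at 0.13 at 2 d and at -3.70 (SE 0.40) at 8 d. AT2G04050 closed this set with 205, 187 and 128 at 8 d, against 1873, 1730 and 1547 at 0 d, at -3.33 (SE 1.04, adjusted p = 0.01107). Its 8 d and 0 d arrays were each close together, its 2 d arrays scattered over 1541, 489 and 33.8, and the fit to the 6 arrays compared gave the same change with an adjusted p of 2.7e-06 (limma).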

How the data were processed

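The 9 arrays were hybridised with total RNA of whole seedlings, per the labels. The deposited table holds the authors' MAS5 signals, a linear intensity per probe set, credited to MAS5 by the submitters' processing notes. Neither its scaling target nor how the table's probe sets were selected is given in the sources used here. Here the signals, 7.0522 to 27573 and with a floor of 1, were taken to log2 without further scaling. R 4.3.3 with limma 3.58.1 fitted 1 mean per group over all 9 arrays, with empirical Bayes moderation and Benjamini-Hochberg adjustment over 10343 probe sets. A further 23 control probe sets had been left out before. The fit was also run on simulated data in which most probe sets were unchanged. The real table is unlike that, so the run does not show how many of the calls here are right. The platform annotation gave 5521 probe sets 1 gene, 214 several and 4608 none, and 5503 of them matched RefSeq. A gene had the probe set with the highest mean. The comparison, members and gene lists were chosen with earlier results of these data known, lists were written by locus and symbol from general knowledge, and 9 misassigned members were dropped after values were seen. Named genes are up to 6 that rose and 6 that fell per list, largest first, with no overlap between groups and a mean of at least 200 in the higher group, members against a list's majority, where given, any member of lists of at most 6, and the 12 largest rises and falls whose lower group averaged at least 100. Arrays with the same replicate number had correlations of -0.043 to 0.23 between their deviations from the group means, so the numbers were not taken as pairs.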

Additional observations from a re-analysis of the deposited data

How the results depend on the processing

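Of 10343 probe sets, 2625 rose and 1877 fell at 8 d against 0 d. Leaving out 1 array at a time gave 2561 to 2691 higher and 1804 to 1924 lower, and the fit with a replicate block, without evidence that the numbers pair the arrays, gave 2626 higher and 1877 lower. Without the dimmest 40% of probe sets, where fewer were tested, 1211 rose and 1233 fell. Median centring gave 1692 higher and 2488 lower, and quantile normalization 1853 and 2192, so that lower calls outnumbered higher ones. A test against the fold threshold itself (treat) gave 1353 higher and 1080 lower, a minimum change of 2 gave 519 and 499, and no minimum gave 5615 and 3703. Over all probe sets the median change came to 0.40 as given, 0.19 after quantile normalization, 0.13 after median centring, 0.37 after centring on the upper quartile and 0.48 on the hybridisation controls. None of the 233 named genes reversed in any alternative run. Setting aside the alternatives that change the thresholds, 197 of them kept their call in every alternative that tested them, and 36 lost it in at least 1, of which 16 lost it without 1 array. Without the dimmest 40% of probe sets, 137 of the 233 were tested. The replicate block ended no call among them. The cause of these losses was not tested. The number of arrays, 3 per group, limits the precision.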

Other observations

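Among genes in none of the lists, picked for mention after their values were seen and so without weight as evidence, several chromatin proteins were higher at 8 d. The gene of 3xHMG-box2, a DNA-bending protein found on mitotic chromosomes, had signals of 1362, 1447 and 1185 in the 8 d arrays, against 168, 192 and 228 in the 0 d arrays, a change of 2.77 (SE 0.17), and its relative 3xHMG-box1 was at 2.23. HIS1-3, a drought-induced linker histone, was at 2.70 and ASF1B, a histone chaperone, at 1.75. UNG, which removes uracil from DNA, was at 2.88. LPR1, a ferroxidase of the root response to low phosphate, was at 2.94. FY and LD, of the autonomous flowering pathway, were at 1.44 and 1.50.

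Plastid functions outside photosynthesis were lower in the same way of picking. PDF1B, a peptide deformylase, was at -1.82, Z-ISO, the zeta-carotene isomerase of carotenoid synthesis, at -1.68, FTSZ2-2, which divides plastids, at -1.62, and THIC, of thiamine synthesis, at -1.31. AER, which detoxifies reactive carbonyls, was at -2.36, and SMZ, a floral repressor, at -1.78. All of these genes were called.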
